A study of Homo sapiens with 4 samples.

Results

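Among 1082 CHP134 cells, 216 had the lowest levels of a set of 10 proliferation genes, and these low-cycling cells were described by treatment and against the other 866 cells. CHP134 is an established human neuroblastoma line grown from an adrenal tumour mass, with amplified MYCN. The cells had been exposed for 24 h to the solvent DMSO at 0.04%, to 13cRA (13-cis-retinoic acid, a vitamin A derivative) at 5 µM, to doxazosin (a blocker of alpha-1 adrenergic receptors) at 10 µM, or to both drugs at these doses, the last group being called the combination. Each treatment was 1 sample of 1 cell line, and cells of 1 sample are not replicates of a treatment, so all values below are descriptions of these 4 libraries and carry no p-value. All 4 suspensions were dispensed into nanowells of 1 chip, wells were imaged for single live cells, and full-length cDNA was sequenced without molecular identifiers. A cell entered with at least 34000 read counts, at least 500 genes and at most 25% of counts from MT- genes, which held for 1082 of 1287 cells. The cells left out were 45 with DMSO, 106 with 13cRA, 17 with doxazosin and 37 with the combination, so 13cRA lost the most. Each kept cell was thinned at random to 34000 counts, and its cycling score was the mean over the 10 genes of log2(CPM + 1), where CPM is counts scaled to a total of 1000000. The low-cycling cells were thus chosen by these measured levels, as the lowest 20% of scores over all libraries together.

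A dividing cell copies its DNA in S phase and separates the copies in mitosis after G2, and the genes for both tasks are switched on in waves. In G1, and in cells that have left the cycle, the retinoblastoma-family pocket proteins hold these genes off with E2F and DREAM complexes, and CDK inhibitors such as p21 and p27 block the kinases that would lift the block. In neuroblastoma, retinoic acid is known for slowing division and driving neuron-like differentiation, and amplified MYCN for keeping cells in cycle. A snapshot of mRNA cannot tell a cell in early G1 from one that has left the cycle, and low-cycling is used here for a low score only.

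The 10 score genes fall into a G2 and mitosis group and an S phase group. TOP2A untangles DNA, CDK1 with its partner cyclin B1 (CCNB1) starts mitosis, CENPF sits at the kinetochore and MKI67 coats mitotic chromosomes. MCM4 and MCM5 are parts of the replicative helicase, PCNA is the sliding clamp of DNA polymerase, and RRM2 and TYMS make DNA precursors. Promoters of such genes are known for CCAAT boxes, which bind NF-Y, for CHR elements, which bind DREAM and B-MYB complexes, and for E2F sites. The promoters of CDK1, TOP2A and RRM2 are shown as examples of score genes, and that of MXD4 because its level stood far higher in the low-cycling cells of every library. Each runs 5′ to 3′ on the gene's strand from 250 bases before the start to 50 after it, from RefSeq on GRCh38.p14. Capitals mark matches on either strand. The CCAAT box was searched as CCAAT, the CHR as TTTGAA in one form and TTCGAA in another. The E2F motif was searched in 4 forms, first TTCCCGC, next to it TTGGCGC, further on TTCGCGC, and last of all TTGCCGC. No marked motifs overlapped.
CDK1 at chr10:60778081-60778380, plus strand: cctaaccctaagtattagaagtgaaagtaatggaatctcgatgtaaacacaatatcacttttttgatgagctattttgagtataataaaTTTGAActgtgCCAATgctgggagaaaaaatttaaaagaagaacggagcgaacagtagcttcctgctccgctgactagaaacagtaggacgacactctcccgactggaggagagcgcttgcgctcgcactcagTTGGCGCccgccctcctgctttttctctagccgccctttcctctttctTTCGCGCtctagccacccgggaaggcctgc
TOP2A at chr17:40417847-40418146, minus strand: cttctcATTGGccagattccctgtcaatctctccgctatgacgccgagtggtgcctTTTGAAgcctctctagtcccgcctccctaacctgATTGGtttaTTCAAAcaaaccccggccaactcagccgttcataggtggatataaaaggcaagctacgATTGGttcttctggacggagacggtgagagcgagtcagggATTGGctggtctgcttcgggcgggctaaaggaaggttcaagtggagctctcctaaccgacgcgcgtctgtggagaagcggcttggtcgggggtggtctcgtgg
RRM2 at chr2:10122318-10122617, plus strand: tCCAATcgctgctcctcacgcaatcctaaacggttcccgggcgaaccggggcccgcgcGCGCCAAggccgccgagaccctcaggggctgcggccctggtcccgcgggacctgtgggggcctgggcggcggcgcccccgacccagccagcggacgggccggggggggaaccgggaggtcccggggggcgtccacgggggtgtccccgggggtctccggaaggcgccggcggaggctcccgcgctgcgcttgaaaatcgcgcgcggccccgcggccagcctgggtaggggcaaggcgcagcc
MXD4 at chr4:2262060-2262359, minus strand: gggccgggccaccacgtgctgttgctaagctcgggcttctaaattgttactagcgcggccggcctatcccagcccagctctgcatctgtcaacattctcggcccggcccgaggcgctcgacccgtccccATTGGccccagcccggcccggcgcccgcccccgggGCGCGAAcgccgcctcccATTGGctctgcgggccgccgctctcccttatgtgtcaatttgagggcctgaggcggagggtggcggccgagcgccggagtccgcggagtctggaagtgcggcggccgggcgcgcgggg
The CDK1 window held 1 CCAAT box, 1 CHR and 2 E2F motifs, and that of TOP2A held 4 CCAAT boxes and 2 CHR. RRM2 had 1 CCAAT box and 1 E2F motif, and MXD4 had 2 CCAAT boxes, 1 E2F motif and no CHR. Of the score genes, 8 of 10 had an entry (MCM4 and MCM5 had none), and 7 held a CCAAT box, 4 a CHR and 4 an E2F motif. Over all 27305 promoters of the same length, 35.6% held a CCAAT box, 16.8% a CHR and 12.8% an E2F motif. A match describes letters only and shows no binding.

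The score was spread continuously over each library, and the boundary of the low-cycling set fell at no gap. The highest score inside was 4.93 and the lowest outside was 4.94, with 19 cells inside and 23 outside within 0.25 of the boundary, and 41 and 58 within 0.5. The class is therefore a range of scores and not a cell type. At the thinned depth 1 count equals 29.4 CPM or 4.93 on the log2 scale, so the score largely counts how many of the 10 genes had any read. No low-cycling cell had reads of more than 8 of the 10 genes, no other cell had fewer than 6, and 63 of the low-cycling cells had 3 or fewer. Not one cell had reads of none of them.

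**Figure D1:**
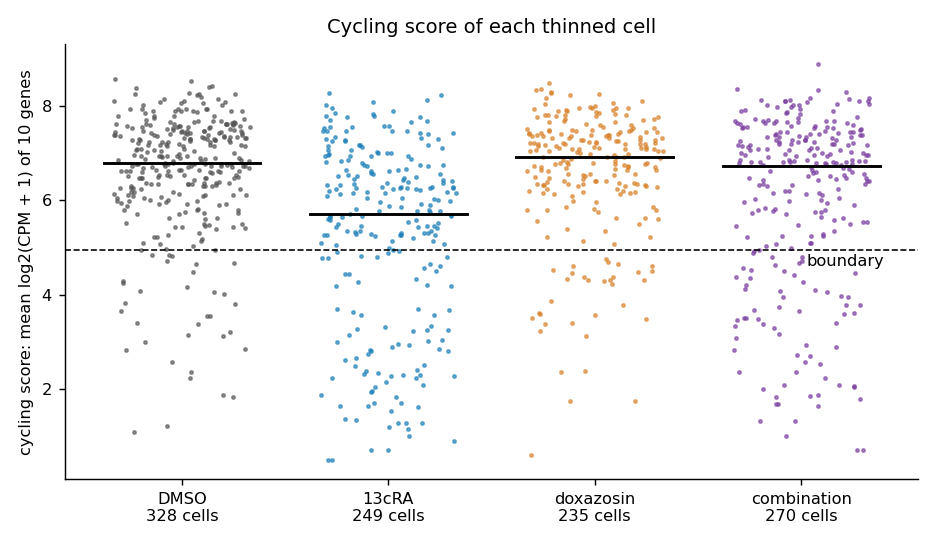
Cycling score (mean log2(CPM + 1) of the 10 score genes, vertical axis) of each cell by library, with the library's median as a black line and the boundary of the low-cycling set as a dashed line. Scores run without a gap through the boundary in all 4 libraries, where 33, 83, 33 and 67 cells lie below it for DMSO, 13cRA, doxazosin and the combination.

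Median scores of the low-cycling cells were 3.54 with DMSO, 2.81 with 13cRA, 4.22 with doxazosin and 3.47 with the combination, against 6.94, 6.38, 7.10 and 7.03 in the other cells. Low-cycling 13cRA cells thus lay furthest below the boundary and low-cycling doxazosin cells nearest to it. The gap to the other libraries was wider in the S phase genes, whose median part-score was 1.54 in low-cycling 13cRA cells against 3.72 with DMSO, 3.66 with doxazosin and 2.76 with the combination. The part-score of the G2 and mitosis genes lay closer together, at 3.45 with 13cRA, 3.96 with DMSO, 3.86 with doxazosin and 3.41 with the combination.

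Since the score chose the cells, the levels of its genes describe the choice. Levels below are pooled, meaning the thinned counts of a set of cells summed and given as CPM, and they compare a gene with itself only, because full-length reads also follow transcript length. CDK1 stood at 40.1 CPM in low-cycling DMSO cells, 5.32 with 13cRA, 20.5 with doxazosin and 40.4 with the combination, against 145, 113, 187 and 173 CPM in the other cells of these libraries. CCNB1 was likewise lower in each library, at 32.1, 64.8, 72.2 and 38.6 CPM against 309, 263, 323 and 346. TOP2A kept the most in low-cycling DMSO cells, at 537 CPM against 1148. Its other low-cycling levels were 398 with 13cRA, 199 with doxazosin and 218 with the combination, against 1177, 1146 and 1142 in the other cells. A low score therefore did not mean the absence of every mitotic transcript. CENPF was the score gene with the smallest mean difference, -1.24 on the log2 scale averaged over the 4 libraries, at 266 to 416 CPM in low-cycling cells against 627 to 901. MKI67 lay at 28.5 to 69.5 CPM against 113 to 202, a mean difference of -1.45. Among S phase genes, RRM2 stood at 153, 111, 127 and 74.2 CPM in the order above, against 526, 325, 531 and 440. PCNA was at 35.1 to 77.5 CPM against 167 to 267, MCM4 at 97.1 to 187 against 375 to 502, and MCM5 at 38.3 to 73.1 against 133 to 163. TYMS was scarce throughout, at 2.67 to 4.46 CPM against 19.1 to 25.6. For all 10 genes the low-cycling and other levels did not overlap over the 4 libraries, which again describes the choice of cells by these genes.

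The share of low-cycling cells was 10.1% with DMSO (33 of 328 cells, exact Clopper-Pearson 95% interval 7.03 to 13.8), 33.3% with 13cRA (83 of 249, 27.5 to 39.6), 14.0% with doxazosin (33 of 235, 9.87 to 19.2) and 24.8% with the combination (67 of 270, 19.8 to 30.4). The intervals cover the sampling of cells and not the spread between cultures. Those of 13cRA and the combination lay above that of DMSO, and those of DMSO and doxazosin overlapped. The number of genes read per cell moved with this result. After thinning, 199 of the 249 13cRA cells fell in the lowest of 4 equal bins of genes per cell over all libraries (1043 to 4157 genes), against 27 of the DMSO cells, 17 of the doxazosin cells and 28 of the combination cells. Inside that bin the share of low-cycling cells was 51.9% with DMSO (31.9 to 71.3), 39.7% with 13cRA (32.8 to 46.9), 35.3% with doxazosin (14.2 to 61.7) and 71.4% with the combination (51.3 to 86.8). The share with 13cRA was thus below that with DMSO, with overlapping intervals. In the next bin (4159 to 4615 genes) it was 8.33% with 13cRA against 13.7% with DMSO, and above that range only 2 13cRA cells remained. The combination had a higher share than DMSO in every bin, with 40% against 13.7%, 14.7% against 3.36% and 5.32% against 1.25% in the upper ones. Doxazosin had a lower share than DMSO in the lowest bin and a higher one in the other three, 37.5% (22.7 to 54.2), 11.1% and 3.09%. Cells between the 25th and 75th percentiles of genes per cell were also taken alone, with the lowest 20% of them as the low-cycling set. The shares were 11.8% with DMSO, 12% with 13cRA (6 of 50 cells), 20.7% with doxazosin and 34.5% with the combination. The order of the treatments therefore changed within these bins and in this middle range. With at least 3000 genes per cell, and the lowest 20% of such cells taken, the pooled order stayed. Low-cycling cells there were 34 of 318 with DMSO, 76 of 230 with 13cRA, 30 of 225 with doxazosin and 66 of 257 with the combination. The lowest bin is wide, so its cells were not matched for genes. The part of genes per cell in the pooled order was not tested.

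**Figure D2:**
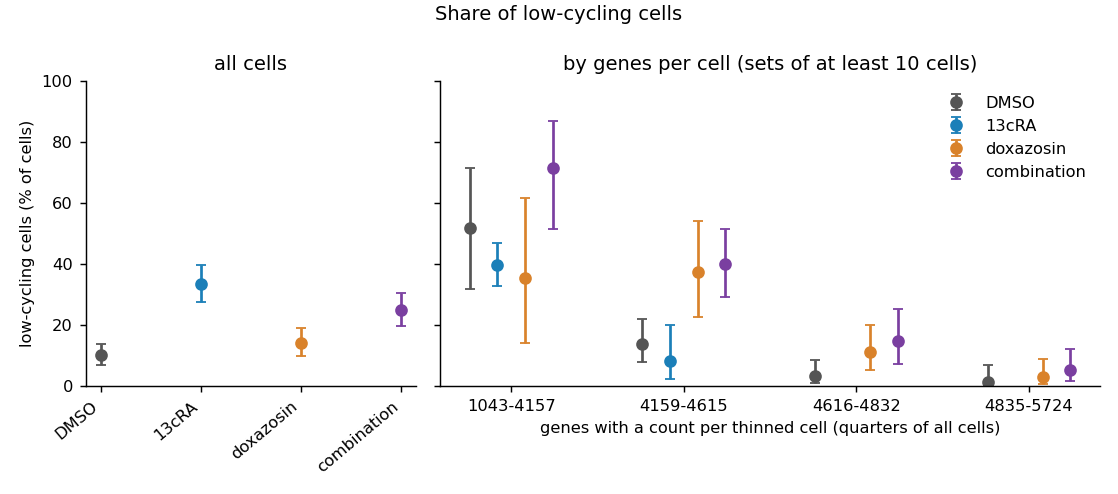
Share of low-cycling cells (percent, vertical axis) by library, with exact 95% intervals, for all cells on the left and by bin of genes per thinned cell (4 equal bins) on the right (sets of at least 10 cells). On the left 13cRA is highest at 33.3%. On the right its points lie at 39.7% and 8.33%, below those of DMSO with overlapping intervals, while the combination lies above DMSO in each bin.

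Low-cycling cells also differed from the others in their reads as a whole. Their median number of genes after thinning was 4189 against 4702 with DMSO, 3579 against 3993.5 with 13cRA, 4524 against 4798.5 with doxazosin and 4396 against 4805 with the combination. Their median share of MT- counts was higher in all 4 libraries, at 11.5% against 10.5%, 16.2% against 12.7%, 11.7% against 10.4% and 11.8% against 9.75%. Total counts before thinning were lower than in the other cells with DMSO, at a median of 121063 against 130977, and higher in the 3 drug libraries, most with the combination at 341034 against 213311. With cells of at most 10% MT- counts only, the set was chosen anew by the same rule among the 376 cells left. Of its 75 cells, 41 were in the low-cycling set used above, so its boundary differed. The shares in this redrawn set were 21.1% with DMSO, 44.4% of 36 cells with 13cRA, 11.6% with doxazosin and 18.3% with the combination. There the share with the combination (24 of 131 cells) was below that with DMSO (24 of 114), with no intervals taken. These shares are not those of the low-cycling set used above. Whether fewer detected genes, more mitochondrial reads or depth had a part in what follows was not tested beyond the values given.

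Cycle genes outside the score were lower in the low-cycling cells of every library. Because these genes move with the score genes in the cells that were ranked, this describes the set and gives the score no independent support. Of 48 other S phase genes measured, 48 had a lower mean over the 4 libraries and 44 were lower in each of them, with list medians on the log2 scale of -1.07 with DMSO, -1.25 with 13cRA, -1.31 with doxazosin and -1.29 with the combination. Of 52 other G2 and mitosis genes, 52 had a lower mean and 38 were lower in all 4, with medians of -1.15, -1.60, -1.87 and -1.63. Across all genes the median was -0.06, -0.10, -0.06 and -0.06. A gene is called here where it passed minima of 20 CPM and 20% of cells with a read in the low-cycling or the other cells of each library, had the same sign in all 4 and a mean of at least 1 on the log2 scale. On that count 203 of 5411 genes (3.75%) were lower and 22 (0.407%) were higher, and nothing is read from these shares since the same cells were ranked. Of any size, 656 genes (12.1%) were higher and 1223 (22.6%) lower in all 4 libraries. In single libraries a 2-fold difference without the other demands was passed upward by 398 of 6393 genes with DMSO (6.23%), 237 of 6119 with 13cRA (3.87%), 322 of 6337 with doxazosin (5.08%) and 244 of 6303 with the combination (3.87%). Downward it was passed by 8.95%, 7.19%, 7.73% and 5.84%.

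The 12 genes furthest below the other cells, score genes left out, included parts of the mitotic machinery. BUB1B, a spindle checkpoint kinase, stood at 13.4 CPM against 107 with DMSO, 27.6 against 128 with 13cRA, 8.91 against 121 with doxazosin and 20.2 against 139 with the combination. NCAPH, a condensin subunit that packs chromosomes, was among the steadiest, at 22.3 against 168, 20.6 against 143, 20.5 against 142 and 17.6 against 141 CPM. Its log2 difference averaged -2.82 with an SD of 0.10 over the 4 libraries. CDCA5 (sororin), which holds sister chromatids together, averaged -2.77 with an SD of 0.14, and KIF20A, a kinesin of cell division, -2.74 with an SD of 0.12. Low-cycling reads of these 3 genes were few, and for KIF20A 1 cell gave 72.2% of the 18 reads with DMSO. Without the richest cell of each set the 4 differences ran from -4.46 to -3.27 for KIF20A, from -3.35 to -2.98 for NCAPH and from -3.22 to -2.79 for CDCA5, so the small spread of KIF20A rested on single cells. Cyclin A2 (CCNA2), which acts from S phase to mitosis, varied more, at 64.2 CPM in low-cycling DMSO cells, 36.5 with 13cRA, 7.13 with doxazosin and 15.4 with the combination, against 193, 144, 183 and 189. ANLN, which builds the cleavage furrow, stood lowest with DMSO at 0.891 CPM (1 read) and stood at 29.1 with 13cRA, 6.24 with doxazosin and 4.83 with the combination, against 50.3 to 64.5 in the other cells. The DNA glycosylase gene NEIL3 (mean -3.17), the kinetochore gene SPC25 (-3.12), the kinesins KIF18B (-2.93) and KIF2C (-2.80), FAM83D (-2.89) and CKAP2L (-2.75) complete the set. NEIL3, KIF18B and FAM83D had no read in the 33 low-cycling doxazosin cells, which put them at least 12.5-, 14.0- and 12.9-fold lower there than in the other cells, against a floor of 3 counts over the set. Of these 12 genes 11 had a promoter entry, and 7 held a CCAAT box, 7 a CHR and 3 an E2F motif.

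The 12 genes furthest above the other cells were led by TP53INP1, MXD4 and KLHL24. TP53INP1, a p53-induced gene with antiproliferative and autophagy roles, stood at 63.3 CPM against 12.8 with DMSO, 51.7 against 22.3 with 13cRA, 66.0 against 11.5 with doxazosin and 137 against 18.7 with the combination. It was read in 45.5%, 38.6%, 63.6% and 55.2% of low-cycling cells against 15.6%, 22.9%, 17.3% and 28.1% of the others, so more cells had it in every library. MXD4, a MAX partner that opposes MYC at its targets, stood at 49.0 against 10.9, 51.0 against 12.6, 36.5 against 8.01 and 33.8 against 7.24 CPM. Its log2 difference averaged 2.04 with an SD of 0.07 over the 4 libraries, or 1.6 to 1.95 without the richest cell of each set, and 36.4% to 48.5% of low-cycling cells against 16.7% to 18.1% of the others had a read. KLHL24, a ubiquitin ligase adaptor, stood at 66.8 against 23.8, 137 against 39.9, 139 against 32.9 and 165 against 41.6 CPM. With the richest cell of each set left out, the mean difference was 1.99 for TP53INP1, 1.85 for MXD4 and 1.73 for KLHL24, so no single cell carried them. Even so, in every library more than 50% of low-cycling cells had no read of MXD4 at this depth. For these 3 genes the pooled low-cycling levels of the 4 libraries overlapped none of the other cells' pooled levels. The genes were picked for the highest means with the same sign in every library, so this separation describes the choice of genes. How many other genes were separated in this way is not given here.

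Of the remaining 9 genes, STMN2 and SCG2 are on the list of neuronal differentiation genes. STMN2, a microtubule regulator of growing axons, stood at 422 CPM against 163 with DMSO, 218 against 81.3 with 13cRA, 381 against 239 with doxazosin and 243 against 98.4 with the combination. SCG2, a granin of secretory vesicles, stood at 141 against 19.5, 373 against 137, 109 against 29.7 and 254 against 140 CPM. In the low-cycling DMSO set 1 cell gave 51% of its reads, and the mean of 1.73 was 1.36 without the richest cells. MYT1, a neuronal zinc finger repressor of progenitor genes, was at 55.3 against 17.6, 48.2 against 24.5, 42.8 against 17.6 and 54.9 against 21.2. RUNDC3A (mean 1.31), CLIP3 (1.19) and the ubiquitin ligase gene RNF165 (1.19) lay in the same range, as did MKNK2, a kinase of the translation factor eIF4E (1.21), and RSRP1 (1.14). RNF165 turned to -0.19 among cells with at most 10% MT- counts, and RSRP1 to -0.25 with the lowest 10% of cells. VSTM2A rested on single cells, since 1 cell gave 69% of its reads in the low-cycling DMSO set, and without the richest cells its mean of 1.33 became 0.67. Of the 12 genes 7 had a promoter entry, of which 3 held a CCAAT box, 1 an E2F motif and 0 a CHR.

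**Figure D3:**
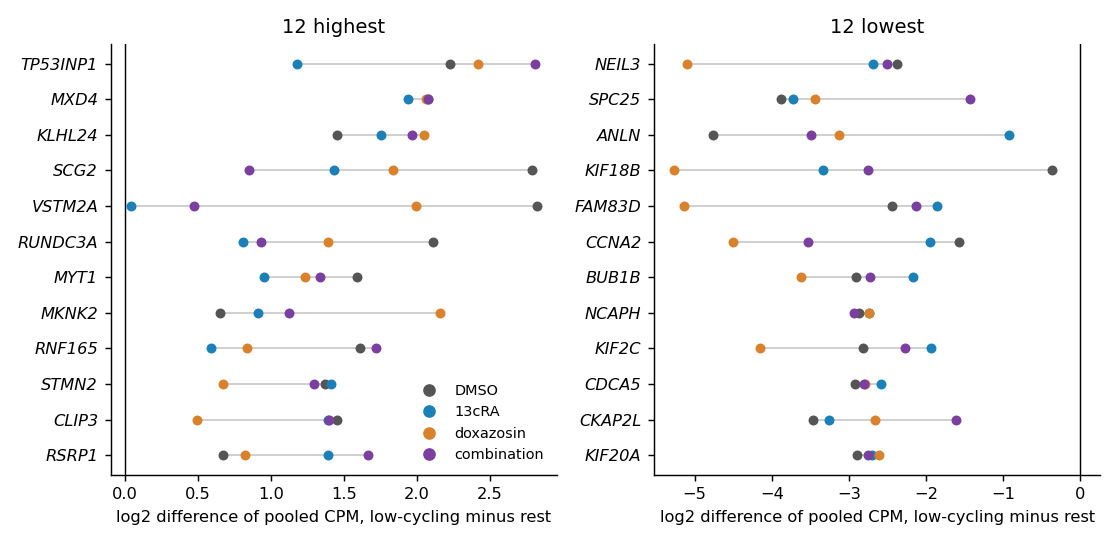
Log2 difference of pooled CPM between low-cycling and other cells of the same library (horizontal axis) for the 12 genes with the highest and the 12 with the lowest mean, 1 dot per library. Dots of MXD4, NCAPH and KIF20A (the last by way of single cells) nearly coincide over the 4 libraries, while those of VSTM2A and ANLN are spread widely.

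The regulators that hold cells out of the cycle did not move together. CDKN1A, which encodes p21, stood at 235 CPM in low-cycling DMSO cells against 55.6 in the others, at 31.9 against 59.5 with 13cRA, at 57.0 against 71.9 with doxazosin and at 70.2 against 60.4 with the combination. The high DMSO value came from few cells, as 1 cell gave 34% of the reads and 27.3% of low-cycling cells had a read against 39.3% of the others. CDKN1B, which encodes p27, was at 71.3 against 55.5, 51.0 against 64.8, 70.4 against 48.6 and 73.7 against 78.5 CPM, higher in 2 libraries and lower in 2. CDKN1C, which encodes p57, was scarce, at 8.02 against 3.29, 18.1 against 8.50, 1.78 against 4.37 and 17.6 against 1.30 CPM. Its widest gap was with the combination, where 28.4% of low-cycling cells had a read against 3.94% of the others, while with doxazosin low-cycling cells had less. Across the list of CDK inhibitors and pocket proteins 4 of 11 measured genes had a higher mean and 7 a lower one, with a median of -0.42. RB1 lay between 16.7 and 34.8 CPM in low-cycling cells and between 20.4 and 39.0 in the others, slightly lower in all 4 libraries. RBL1 (p107), itself an E2F target, averaged -1.93, whereas RBL2 (p130), the pocket protein of resting cells, was 0.28, -0.44, -1.51 and 0.00 in the 4 libraries.

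Cyclin D1 (CCND1), which drives G1, stood at 201 CPM against 109 with DMSO, 154 against 176 with 13cRA, 147 against 95.8 with doxazosin and 137 against 109 with the combination. By pooled level it was thus higher in the low-cycling cells of 3 libraries and lower with 13cRA. With 13cRA it was read in 71.1% of low-cycling cells against 86.7% of the others. In at most 1 of the 4 libraries did a larger share of low-cycling than of other cells have a read of it. The higher pooled levels therefore did not mean more cells with a read in most libraries. Genes that act at the entry to S phase were lower, with means of -1.35 for CCNE1, -1.18 for CCNE2, -1.42 for CDK2 and -1.71 for E2F2. In the list of G1 cyclins, CDKs and E2F, 13 of 16 genes had a lower mean, with a median of -0.81. MYCN, the amplified driver of this line, was not lower in low-cycling cells. It stood at 780 CPM against 761 with DMSO, 1293 against 964 with 13cRA, 907 against 726 with doxazosin and 943 against 810 with the combination, and with TMM scaling (below) it was higher in 3 of the 4 libraries. In contrast, 21 of 24 MYC target and ribosome biogenesis genes had a lower mean, 14 of them lower in all 4, with a median of -0.27 that included MRTO4 (-0.52) and NOP58 (-0.48).

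**Figure D4:**
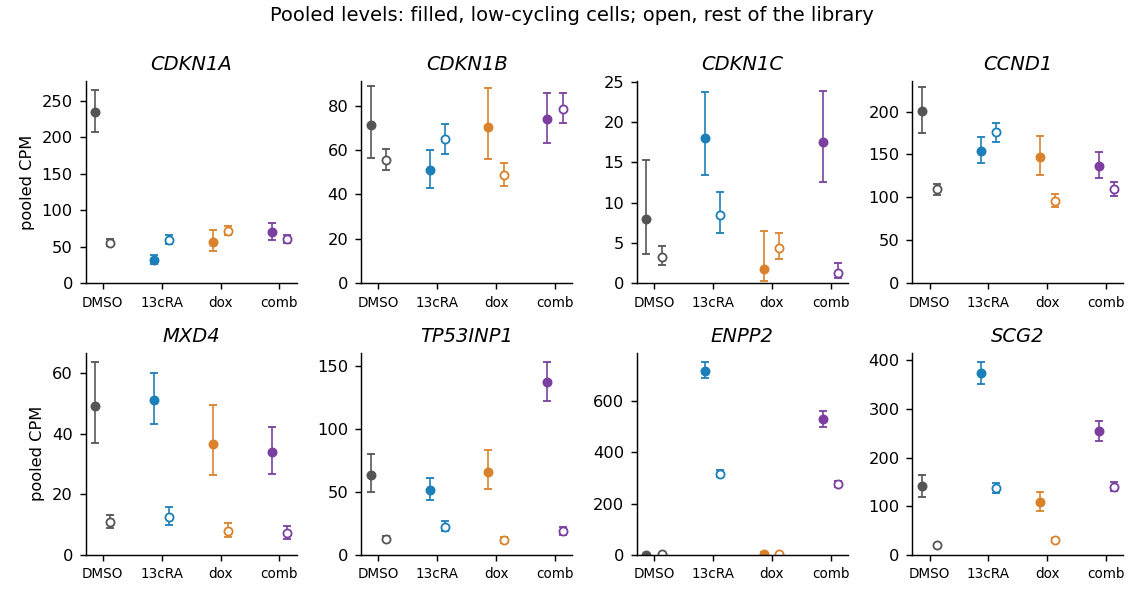
Pooled level (CPM, linear axis) with exact 95% Poisson intervals for 8 genes by library, filled for low-cycling and open for the other cells. MXD4 and TP53INP1 are higher in low-cycling cells of every library, CDKN1A only with DMSO by a wide margin (235 against 55.6 CPM), and ENPP2 is high in the 2 libraries with 13cRA only.

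Genes of quiescence and cell cycle exit leaned upward. Of 13 measured, 10 had a higher mean and 5 were higher in all 4 libraries, with medians of 0.86 with DMSO, 0.74 with 13cRA, 0.37 with doxazosin and 0.76 with the combination. BTG1, an antiproliferative gene, was at 58.8 CPM against 27.7, 87.2 against 59.7, 66.8 against 39.9 and 93.9 against 43.5 in this order. Its relative BTG2, a p53 target, was at 28.5 against 14.0, 17.4 against 14.9, 30.3 against 15.7 and 18.9 against 11.3, a small gap with 13cRA. In the low-cycling 13cRA set 1 cell gave 55% of the BTG2 reads. Without the richest cell of each set the log2 difference with 13cRA was -0.66. CCNG2, a FOXO target linked to arrest, was higher in the 3 drug libraries (32.2 against 11, 33.9 against 10.6 and 27.7 against 18.3) but lower with DMSO at 1.78 against 6.78 CPM. GADD45A, a stress and arrest gene, was at 38.3 against 16.3, 76.2 against 47.5, 33.9 against 18.2 and 57.5 against 29.4 CPM. The p53 target list as a whole had 7 higher and 10 lower means of 17, with a median of -0.04, and the apoptosis list 6 and 5 of 11, with a median of 0.04. Both medians lay above that of all genes, -0.10.

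Differentiation genes were higher on balance. Of 13 measured retinoid response genes, 13 had a higher mean and 6 were higher in all 4 libraries, with medians of 0.46, 0.71, 0.54 and 0.88. With TMM scaling (below) 9 of the 13 had a higher mean and 4 a lower one. Of 12 noradrenergic identity genes 10 had a higher mean and 7 were higher in all 4, with medians of 0.51, 0.35, 0.60 and 0.37, among them the transcription factor genes TBX2 (mean 1.08), PHOX2A (0.90) and HAND2 (0.57). Of 31 neuronal differentiation genes 21 were higher and 10 lower on average, with a median of 0.21, led by STMN4 (1.82), SCG2, STMN2 and PRPH (0.95), a neuronal intermediate filament gene. That median was -0.19 among cells with at most 10% MT- counts and -0.17 with means of per-cell log2 values. The 8 mesenchymal state genes were split 5 to 3, with a median of 0.13. On the list of immediate early and heat shock genes, 10 of 14 measured had a higher mean and 4 a lower one, with a median of 0.28, while with DMSO 6 were higher and 8 lower, with a median of -0.11. JUN was at 13.4 against 5.28, 59.5 against 21.3, 10.7 against 4.22 and 35.1 against 10.0 CPM, and the means of FOS and EGR1 were 1.29 and 1.27. The chaperone gene HSPA8 on the same list was lower in all 4 libraries, with a mean of -0.74.

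Growth and energy genes differed less. All 41 measured cytosolic ribosomal protein genes had a higher mean and 35 were higher in all 4 libraries, but the median was only 0.26. All 13 mitochondrially encoded mRNAs had a higher mean, with a median of 0.17, beside the higher MT- share of these cells. Glycolysis and hypoxia genes were lower in 17 of 21, with a median of -0.31, led by BNIP3 (-1.12) and PFKP (-0.91), and LDHA was lower in all 4 libraries with a mean of -0.65. Nuclear oxidative phosphorylation (median 0.0043), cholesterol synthesis (0.035) and ER stress genes (-0.09) stayed near the median of all genes, -0.10. Polycomb, chromatin and DNA methylation genes were lower in 12 of 16, with a median of -0.31, among them UHRF1 (-1.22) and LMNB1 (-1.27), both also tied to S phase. Nuclear-retained long noncoding RNAs were higher in 8 of 9, with a median of 0.39. NEAT1 was at 212 against 76.7, 389 against 250, 132 against 99.4 and 214 against 143 CPM. In the low-cycling DMSO set 1 cell gave 43% of its reads, and its mean of 0.77 was 0.53 without the richest cells. MALAT1 had a mean of 0.43, higher in 3 libraries but lower with doxazosin (-0.17). The higher list median stood beside the larger MT- share and the fewer genes of low-cycling cells, whose part in this was not tested.

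These differences are shares of each set's reads, and another scaling moves them. TMM factors, which centre on genes that differ little, lowered every difference by 0.26 with DMSO, 0.15 with 13cRA, 0.16 with doxazosin and 0.13 with the combination. They took the percentage of genes higher in low-cycling cells from 46.1 to 29.7, from 43.5 to 33.2, from 45.6 to 34.1 and from 45.0 to 35.4. On that scale the medians of the ribosomal proteins (0.08, with 34 of 41 higher) and the neuronal genes (0.04) came close to 0, while mitochondrial mRNAs (-0.0018), apoptosis (-0.14), mesenchymal (-0.03), oxidative phosphorylation (-0.17) and cholesterol genes (-0.14) turned negative. Medians of the retinoid (0.47, with 9 of 13 higher), quiescence (0.38, 10 of 13) and noradrenergic lists (0.19, 9 of 12) kept their direction. Those of other S phase (-1.39) and G2 and mitosis genes (-1.71) did so too.

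**Figure D5:**
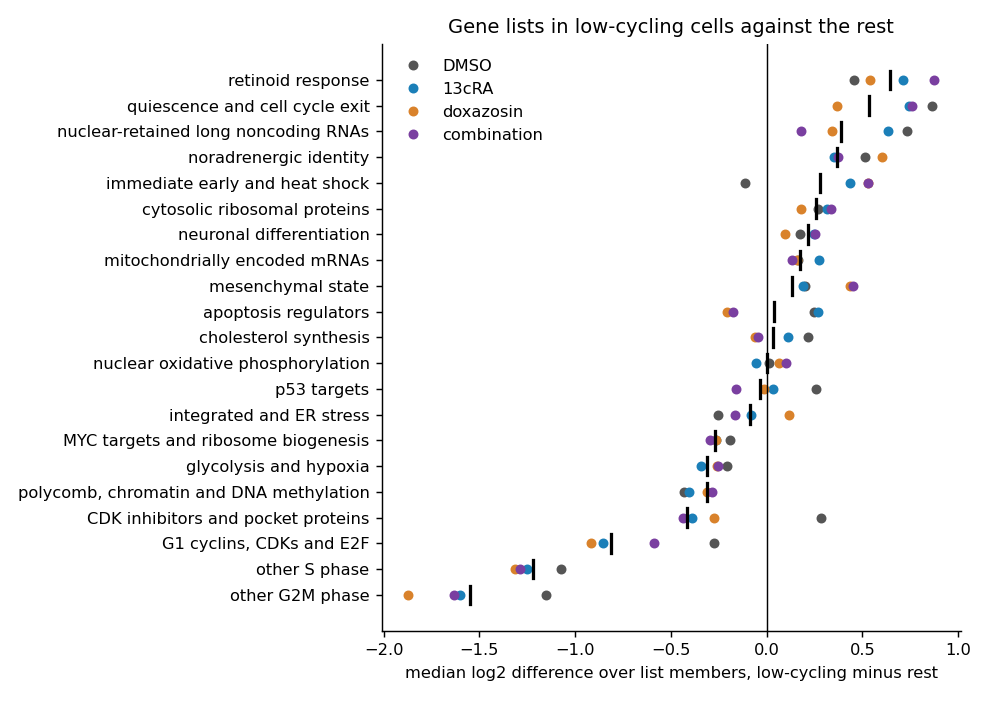
Median log2 difference of low-cycling against other cells over the measured members of each gene list (horizontal axis), 1 dot per library, with a black bar for the median of the members' means over the 4 libraries. The S phase and G2 and mitosis lists lie below -1 in every library, the retinoid, quiescence and noradrenergic lists lie above 0 in every library, and most others lie near 0.

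Genes induced by retinoids could be followed within the low-cycling cells of the libraries that had received 13cRA. ENPP2 (autotaxin), a secreted enzyme that makes lysophosphatidic acid, stood at 719 CPM in low-cycling 13cRA cells against 317 in the other cells, and at 530 against 276 with the combination. It was read in 78.3% of low-cycling 13cRA cells against 60.2% of the others, but in similar shares with the combination, 74.6% and 71.9%. Without 13cRA it was at 0.891 (1 read) and 1.99 CPM with DMSO and at 4.46 and 1.6 with doxazosin. The ratio of low-cycling 13cRA to low-cycling DMSO cells was 806 with an exact 95% counting interval of 145 to 31863, and that of the combination was 594 (106 to 23500). SLIT2, an axon guidance ligand, showed the same pattern at 228 against 107 CPM with 13cRA and 156 against 74.8 with the combination. The G protein regulator RGS16 stood at 238 against 57.4 and 109 against 41.4. RARB, the retinoic acid receptor gene that retinoids induce, stood at 31.9 against 13.3 and 40.4 against 18.1, with no read in low-cycling DMSO cells, which makes these levels at least 11.9- and 15.1-fold higher. CRABP2, a carrier of retinoic acid named after its values were seen, lay at 49.3 against 26.6 with 13cRA and at 65.4 against 30.0 with the combination. In all of these picked genes the level was higher in the low-cycling than in the other cells of both libraries given 13cRA. The lower number of genes read in those cells stands beside this. Over all genes, 43.5% with 13cRA and 45.0% with the combination were higher. On the retinoid response list 15 of 18 and 17 of 18 were. RGS16 was higher in the low-cycling cells of all 4 libraries, so its difference was not particular to 13cRA.

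Low-cycling cells of each drug library were also compared with low-cycling DMSO cells. These 3 comparisons share the same 33 DMSO cells, so single cells weigh heavily. A 2-fold difference was passed upward by 670 of 6160 genes with 13cRA (10.9%) and downward by 713 (11.6%), against 2.18% and 2.00% in the other cells of the same libraries. With doxazosin the shares were 9.99% upward (628 of 6289) and 9.16% downward (576), against 0.115% and 0.0491%. With the combination they were 9.76% upward (612 of 6270) and 9.11% downward (571), against 0.959% and 0.764%. The low-cycling sets held 33 to 83 cells and the others 166 to 295, and the part of set size was not tested. The list of retinoid response genes had a median of 1.33 with 13cRA, 0.93 with the combination and -0.22 with doxazosin in low-cycling cells, close to 1.10, 0.97 and -0.12 in the other cells. The retinoid list stood above DMSO in both sets of cells of both libraries given 13cRA. It was chosen with earlier results of these data known, so this gives no independent support for a retinoid response.

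Among the 5 genes furthest above low-cycling DMSO cells with 13cRA and the combination were further genes with no read in the DMSO set. RGS8 stood at 54.2 CPM with 13cRA and 49.6 with the combination, at least 20.3- and 18.6-fold higher, and CCBE1, a secreted matrix protein gene of lymphatic growth, at 124 and 62.3, at least 46.4- and 23.3-fold higher. BMF, a pro-apoptotic BCL2-family gene, was at 54.2 CPM with 13cRA, 19.6 with doxazosin and 25 with the combination, at least 20.3-, 7.33- and 9.36-fold higher. SPP1 (osteopontin) was at 61.9 CPM with the combination, at least 23.1-fold higher, and PALMD at 47.4, at least 17.7-fold higher. Lowest with 13cRA were the nucleoside transporter gene SLC29A1 (1.06 against 58.8 CPM), STAC (7.80 against 147), CYSTM1 (3.19 against 59.7), TMEM79 (3.90 against 58.8) and C1orf198 (5.32 against 73.1). TMEM79 shows how few cells decide such values, since 1 DMSO cell gave 73% of its reads. Lowest with the combination, beside TMEM79 at 0.878 CPM, were FAM219B (0.878 against 42.8), SMCO4 (0.878 against 26.7), PPP2R2B (2.19 against 41.0) and cyclin B2 (CCNB2, 27.7 against 357). For doxazosin the highest included the mitotic kinase gene PBK (196 against 3.57 CPM), DEDD2 (51.7 against 1.78), C18orf25 (28.5 against 0.891) and CCNG2 (33.9 against 1.78). In the other cells the log2 differences of these 4 genes were 0.13, -0.21, 0.07 and 0.58. The lowest with doxazosin included KIF18B, the helicase gene BLM (4.46 against 53.5) and SSBP2 (2.67 against 35.7). In the other cells the log2 differences of KIF18B, BLM and SSBP2 were 0.059, -0.011 and 0.08. None of these 7 genes differed by 2-fold between doxazosin and DMSO in the other cells. CLCN3P1, a pseudogene among the lowest, is uncertain because its reads may come from its parent gene.

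Of the markers of other cell types, those of leukocytes and epithelium were near 0. Summed levels of the leukocyte markers were 0 to 3.57 CPM in low-cycling cells and those of the epithelial markers 0.891 to 5.32. Schwann cell markers summed to 6.24, 19.8, 3.57 and 8.78 CPM against 2.39, 4.61, 2.18 and 2.03 in the other cells, mostly ERBB3, while SOX10 was at 0 in 3 libraries and 0.44 CPM with the combination. Endothelial markers were higher in low-cycling cells given 13cRA, at 34.7 against 17.4 and 27.2 against 7.53 CPM, of which CLDN5 gave 32.6 and 18.9. Fibroblast markers, mostly THY1, which neuronal cells also carry, were at 59.7 to 97.1 CPM against 66.8 to 81.3.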

How the data were processed

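The deposited values are raw read counts per gene and cell, per the submitters' processing notes and the values themselves, which are whole numbers. Of builds, those notes name GRCh37 beside GRCh38.p13 without saying which served for what. Of tools, they name Seurat 4.3.0, featureCounts, STAR 2.7.8a, fastp 0.23.3 and also bcl2fastq. Not given in the sources used here were the annotation, the strand setting and the treatment of multi-mapped reads, so antisense genes and near-identical copies are uncertain. The table gives Ensembl gene IDs, of which 60481 of 60651 matched an entry of the gene name table (18420 of them an ID only). No molecular identifiers were used, so counts include PCR copies, and exact Poisson and Clopper-Pearson intervals cover counting or the sampling of cells only.

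Kept cells summed to 47736478 counts with DMSO, 21236440 with 13cRA, 46117461 with doxazosin and 72064624 with the combination, at medians of 130716, 73430, 178111 and 234336 per cell. Cells were thinned without replacement to 34000 counts with a fixed seed, counts were summed over the low-cycling and the other cells of each library, and differences were taken as log2(CPM + 1). A gene was measured at 20 CPM and in at least 20% of cells of either set, list members at 5 CPM. No cells were identical. Doublets were not called, as imaging had picked wells with single cells, although the richest cell held 18592 genes before thinning. With 1 sample per treatment no test was made. The selection and pooling were checked on simulated counts with a separate planted low group. The real scores have no such gap, so the check covers the calculation and not the boundary used here. Python 3.11.15, numpy 2.4.6, scipy 1.17.1, pandas 2.3.3, matplotlib 3.10.9 and R 4.3.3 with edgeR 4.0.16 (TMM factors only) were used.

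Named genes were the 12 highest and 12 lowest over the 4 libraries (same sign in all 4, and the same direction of the share of cells in at least 3), the 5 highest and lowest against low-cycling DMSO cells per drug, up to 4 members per list, and a set of regulators. Cells, lists and rule were chosen with earlier results of these data known. Of the genes the rule picked, 2 are not reported here. Alternatives were another gene weighting, seed, depth, share of cells, score genes, mitochondrial maximum, window of genes per cell, selection within libraries, summing, TMM, pseudocount, minimum level and per-cell means.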

Additional observations from a re-analysis of the deposited data

Results flagged for a closer look

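Some gene lists and genes differed between low-cycling and other cells in opposite directions in 2 libraries. None of these differences between libraries was tested, since each treatment is 1 sample, and all are log2 values, low-cycling minus other cells, with the 2 most opposed libraries given. For CDKN1A (p21) the difference was 2.06 with DMSO, where 1 cell gave 34% of the reads, and -0.88 with 13cRA. For CDC25A, a phosphatase that opens S phase, it was 0.82 with DMSO, where 1 cell gave 83% of the low-cycling reads, and -3.23 with doxazosin. The median of the CDK inhibitors and pocket proteins was 0.28 with DMSO and -0.44 with the combination, and that of the p53 targets 0.26 with DMSO and -0.16 with the combination. Among immediate early and heat shock genes the median was 0.53 with the combination and -0.11 with DMSO. Apoptosis regulators had 0.27 with 13cRA and -0.21 with doxazosin, and ER stress genes 0.12 with doxazosin and -0.25 with DMSO. Cholesterol synthesis genes had 0.22 with DMSO and -0.06 with doxazosin, and nuclear oxidative phosphorylation genes 0.10 with the combination and -0.05 with 13cRA.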

How the results depend on the processing

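No paired analysis was possible because each treatment has 1 sample. In all 16 alternatives the 12 highest and 12 lowest genes kept the sign of their mean, apart from RSRP1 and RNF165 in 1 setting each. Of these alternatives, 1 was chosen after seeing the data. The genes were picked for extreme means, and the called sets changed more. Of the 22 higher genes, 12 were called again with a second thinning seed and 1 with at most 10% MT- counts. Of the 203 lower genes, 170 and 83 were. Values are in the order DMSO, 13cRA, doxazosin and combination for shares, and genes higher then lower for counts, with drug counts against low-cycling DMSO cells. The cause of each change was not tested.

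With the lowest 10% of cells the shares were 3.96%, 22.9%, 2.98% and 11.5%, 45 and 405 genes differed in all 4 libraries, and drug counts were 1150 and 1124 with 13cRA, 1395 and 1394 with doxazosin, and 1222 and 1034 with the combination. List medians were then -2.02 for other S phase, -2.20 for other G2M, -1.23 for CDK inhibitors, 0.15 for quiescence, -0.55 for p53 targets, -0.46 for apoptosis, 0.32 for ribosomal proteins and -0.30 for ER stress, and RSRP1 reversed to -0.25. With the lowest 1 in 3 cells the shares were 22.6%, 54.2%, 22.1% and 36.7%, 11 and 94 genes differed in all 4, and drug counts were 363 and 387, 276 and 278, and 264 and 291. Medians were -0.82 for other S phase, -0.94 for other G2M, -0.19 for MYC targets, 0.22 for ribosomal proteins and -0.19 for glycolysis.

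With the 5 G2M genes as score, medians were -0.93 for other S phase, -0.19 for MYC targets, 0.22 for ribosomal proteins and -0.20 for glycolysis, and 172 of the 216 cells were shared. With the 5 S phase genes the 13cRA share was 39.8%, and medians were -1.35 for other S phase, -0.83 for other G2M and -0.14 for p53 targets. A second thinning seed shared 198 of the 216 cells and gave 0.064 for p53 targets.

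With at most 10% MT- counts the set was chosen anew among 376 cells, and 41 of its 75 cells were in the low-cycling set used above. Its shares were 21.1%, 44.4% and 18.3% with DMSO, 13cRA and the combination. In all 4 libraries 13 and 316 genes differed, and drug counts were 1101 and 1936, 988 and 1089, and 1037 and 1012. Medians were -0.83 for other S phase, -1.12 for other G2M, 0.25 for quiescence, 0.10 for p53 targets, -0.39 for apoptosis, 0.75 for mesenchymal, -0.16 for MYC targets, 0.43 for ribosomal proteins, 0.14 for oxidative phosphorylation, 0.12 for noncoding RNAs and -0.28 for cholesterol. Neuronal genes (-0.19), mitochondrial mRNAs (-0.31) and RNF165 (-0.19) reversed.

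Between the 25th and 75th percentiles of genes per cell the shares were 12% with 13cRA, 20.7% with doxazosin and 34.5% with the combination, and 41 genes were higher in all 4, of which 6 were among the 22. Drug counts were 1112 and 1816 with 13cRA, where 6 low-cycling cells remained, 411 higher with doxazosin and 392 higher with the combination. Medians were 0.14 for ribosomal proteins, -0.36 for ER stress and 0.045 for noncoding RNAs. With at least 3000 genes per cell, the added setting, counts were 341 and 375 with doxazosin and 350 and 357 with the combination, and medians 0.16 for ribosomal proteins and 0.28 for mitochondrial mRNAs. Selection within each library gave 315 and 303 with doxazosin and 0.16 for p53 targets. Unthinned sums gave 876 lower with doxazosin, 0.11 for p53 targets and 0.11 for mitochondrial mRNAs.

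TMM left 12 and 322 genes in all 4, with medians of -1.39 for other S phase, 0.38 for quiescence, -0.21 for p53 targets, 0.043 for neuronal, -0.45 for MYC targets, 0.082 for ribosomal proteins, -0.17 for oxidative phosphorylation and 0.22 for noncoding RNAs, and -0.0018 for mitochondrial mRNAs, which reversed. A pseudocount of 5 CPM left 13 genes higher in all 4. A minimum of 100 CPM left 2 and 55, and drug counts of 126 and 176, 85 and 75, and 84 and 101. Means of per-cell log2 values, which follow the share of cells with a read, gave 14 and 1513 genes in all 4. Drug counts were then 323 and 1315 with 13cRA, 1246 and 226 with doxazosin, and 328 lower with the combination. Medians there were -2.77 for other S phase, -2.47 for other G2M, -1.57 for G1 genes, 0.29 for quiescence, -0.19 for p53 targets, -0.48 for apoptosis, 0.085 for noradrenergic, -1.16 for MYC targets, 0.19 for ribosomal proteins, -0.53 for oxidative phosphorylation, -0.73 for glycolysis, -0.59 for ER stress, 0.13 for noncoding RNAs, -0.33 for cholesterol and -1.23 for polycomb genes. Neuronal genes (-0.17) and mitochondrial mRNAs (-0.042) reversed.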
